A study of Homo sapiens with 2 samples.

Results

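The data describe 10 long noncoding RNA genes, MIR155HG, DLEU2, DLEU1, MALAT1, NEAT1, MIAT, GAS5, SNHG1, SNHG5 and SNHG7, in L-428 cells with and without suppression of PRAME. L-428 is an established Hodgkin lymphoma (HL) cell line. One array was hybridized with RNA from L-428 cells carrying pcDNA6.2-GW/EmGFP-miR-PRAME, a vector that expresses an artificial microRNA against PRAME together with a green fluorescent protein. The other array was hybridized with RNA from L-428 cells carrying pcDNA6.2-GW/EmGFP-miR-neg, the control vector, which the paper calls empty. According to the methods, transfectants were selected with blasticidin and were stable, so both arrays describe selected pools or lines, and cells that changed could not be told apart from cells that were lost or gained. The question of the study was which genes change when PRAME, a tumor antigen that represses retinoic acid signaling, is suppressed. The general description of the series names another HL cell line (L-540) and another array type, whereas both sample labels name L-428.

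The genes, and the gene lists set beside them, were chosen by name with earlier results of these data known. Their counts are therefore not independent of these data. A probe set belonged to the 10 genes if the array annotation gave it exactly 1 of their symbols, which held for 46 of 54675 probe sets. Of these, 25 were annotated to 1 of the genes alone (MALAT1, DLEU2, DLEU1, MIAT and GAS5). A further 20 were annotated to 1 of the genes and also to microRNAs or small nucleolar RNAs (snoRNAs) that lie within it, and 1 was annotated to DLEU2 and to a related pseudogene elsewhere. MIR155HG, NEAT1, SNHG1, SNHG5 and SNHG7 had only such shared probe sets. A shared probe set may not measure the host gene alone, so these values were kept out of the counts and given separately. Below, they carry the name of the host gene for short.

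Long noncoding RNAs are transcribed and spliced like messenger RNAs in many cases but are not translated into a known protein. MALAT1 and NEAT1 stay in the nucleus, where MALAT1 gathers at nuclear speckles that hold splicing factors and NEAT1 forms the scaffold of paraspeckles. Other long noncoding RNAs serve as hosts of small RNAs: MIR155HG, first described as BIC, is highly expressed in Hodgkin and Reed-Sternberg cells and gives rise to miR-155, and DLEU2 carries miR-15a and miR-16-1 in the region of chromosome 13q14 that is often deleted in chronic lymphocytic leukemia. GAS5 and the SNHG genes carry snoRNAs in their introns, and the spliced exons of such hosts can be removed by nonsense-mediated decay.

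The mature microRNAs of both host genes are shown because their seeds (bases 2 to 8, in capitals) name the groups of messenger RNAs they act on. The sequences are those of RefSeq on GRCh38.p14. The lines give miR-155-5p from chr21:25573983-25574006 (plus strand), miR-15a-5p from chr13:50049167-50049188 (minus strand) and miR-16-5p from chr13:50049027-50049048 (minus strand).
hsa-miR-155-5p: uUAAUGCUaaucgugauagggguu
hsa-miR-15a-5p: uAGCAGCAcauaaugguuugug
hsa-miR-16-5p: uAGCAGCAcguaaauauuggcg
Both microRNAs of DLEU2 share the seed AGCAGCA, and miR-155-5p has a different one. The array measures host transcripts and messenger RNAs, and mature microRNAs were not measured.

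Values are linear MAS5 signals, the intensity measure of the deposited table, and their trimmed mean was 500.1 on both arrays. Log2 ratios are knock-down over control and were centered on the median of the 27307 probe sets above a filter (mean signal of at least 97.7). Because each condition has 1 array, differences could not be tested against a spread between cultures, and precision is limited by the number of arrays. Among 5840 genes with several probe sets above the filter, the pooled SD of the log2 ratios within a gene was 0.33, which is not a spread between cultures. PRAME had a signal of 1251 in the knock-down cells and 2115 in the control cells (log2 ratio -0.80). All 7 markers of Hodgkin and Reed-Sternberg cells were above the filter by their mean over both arrays, as were 3 of 5 B cell, 0 of 5 T cell, 1 of 4 myeloid and 3 of 5 stromal or epithelial markers. The 3' to 5' signal ratio was 1.04 in knock-down cells and 0.948 in control cells for GAPDH, and 1.17 in knock-down cells and 1.14 in control cells for ACTB.

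MALAT1 was higher in the PRAME knock-down cells in each of its 12 probe sets. With all probe sets used, its log2 ratios reached further from 0 than those of the other 9 genes above the filter. However, with plain _at probe sets alone DLEU2 (0.75) was further from 0 than MALAT1 (0.40). That DLEU2 value rests on 1564443_at, which passed the filter of 97.7 only through its knock-down signal (162, beside 93.3 in the control cells). The brightest MALAT1 probe set, 224567_x_at, had a signal of 7195 in the knock-down cells and 2646 in the control cells (log2 ratio 1.40). The probe set 226675_s_at had the highest log2 ratio (1.58), with signals of 2473 in the knock-down cells and 802 in the control cells. The probe set with the smallest difference was 224558_s_at, with signals of 2073 in the knock-down cells and 1826 in the control cells (log2 ratio 0.14). Thus the knock-down signal lay above the control signal everywhere, but by very different amounts.

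The other bright probe sets were 1558678_s_at with a signal of 5195 in the knock-down cells and 2092 in the control cells (log2 ratio 1.27), and 223940_x_at with 4561 in the knock-down cells and 1943 in the control cells (1.19). Together with 224567_x_at and 226675_s_at these were the 4 MALAT1 probe sets past 2-fold. A further 4 were past 1.5-fold, namely 231735_s_at (log2 ratio 0.85), 224568_x_at (0.78), 227510_x_at (0.74) and 223578_x_at (0.73). The remaining 4 were below 1.5-fold, with log2 ratios of 0.50 for 223577_x_at, 0.40 for 224559_at, 0.34 for 228582_x_at and 0.14 for 224558_s_at. The median over the 12 probe sets was 0.76.

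**Figure D1:**
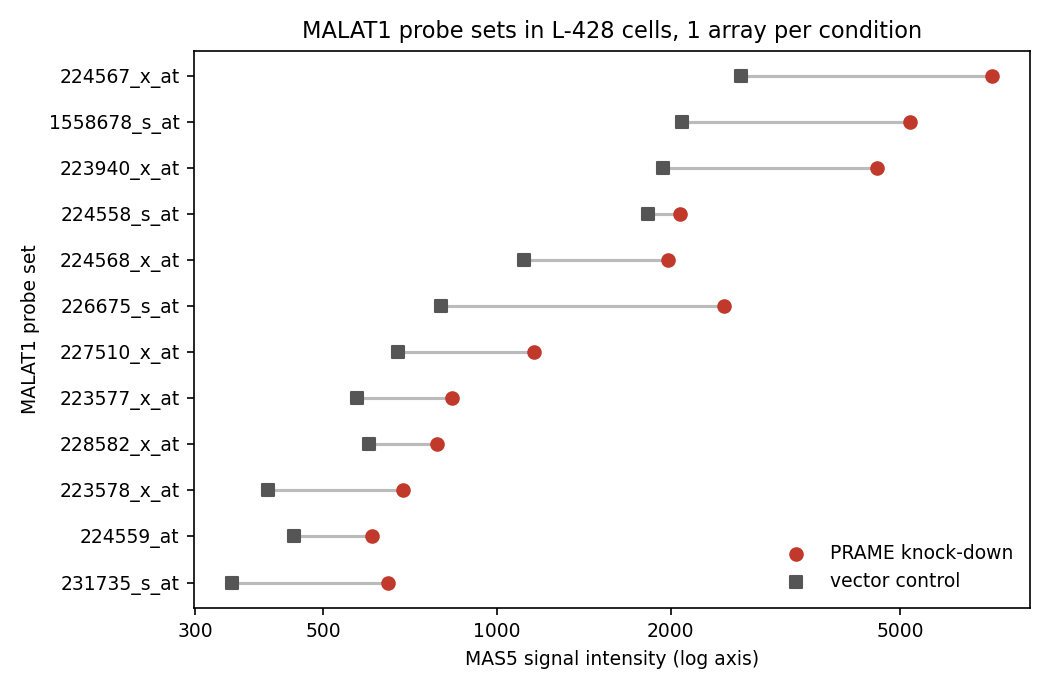
MAS5 signal (log axis) of each of the 12 MALAT1 probe sets in PRAME knock-down cells (red circles) and vector control cells (grey squares), 1 array per condition, with grey lines joining the signals of a probe set. Every red circle lies to the right of its grey square, and the distance is smallest for 224558_s_at (log2 ratio 0.14) and greatest for 226675_s_at (1.58).

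The probe sets of MALAT1 did not differ by the same amount. The 6 brightest (mean signals of 1408 to 4363) had a median log2 ratio of 1.23 and included all 4 past 2-fold, and the 6 dimmest (474 to 884) had a median of 0.62. Of the 12, 11 have names ending in _s_at or _x_at, which marks probe sets whose probes match several transcripts or can match other sequences. The only probe set without such an ending, 224559_at, had a signal of 608 in the knock-down cells and 446 in the control cells (log2 ratio 0.40, below 1.5-fold). With such endings left out, no MALAT1 probe set was therefore past 1.5-fold. The probe sets are not replicates, since they measure the same 2 RNA samples and several may share sequence.

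Set beside probe sets of similar signal, MALAT1 stood high. For each of the 3 brightest probe sets, 99.9% of the 1000 probe sets of closest brightness gave lower log2 ratios, and for 226675_s_at it was 100%. For the least changed probe set, 224558_s_at, it was 76.9%. Among the genes with at least 8 probe sets above the filter, MALAT1 was the only one with all of them above 0. For ZBTB20, 9 of 10 were above 0. The direction held for all 12 probe sets without centering, after quantile normalization, after subtraction of a loess curve and with an offset of 64.

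Counted over the genes with probe sets of their own, 22 of 25 probe sets were above the filter. Of these 22, 9 were at least 1.5-fold higher and 1 was at least 1.5-fold lower in the knock-down cells, beside 8.21% higher and 6.2% lower of all 27307 probe sets above the filter. At 2-fold, 4 were higher and 0 lower, beside 1.74% and 0.941% of all probe sets. Of the 9 higher probe sets, 8 were those of MALAT1, and without MALAT1 there was 1 higher and 1 lower among 10. That higher one, the DLEU2 probe set 1564443_at, had a control signal (93.3) below the filter of 97.7. The split of all probe sets at 2-fold depended on the scaling, with 476 higher and 257 lower after centering but 317 higher and 345 lower after the loess subtraction. The 5 genes had a median log2 ratio of 0.28 when each was represented by its brightest probe set, beside -0.0069 over all 11794 genes.

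**Figure D2:**
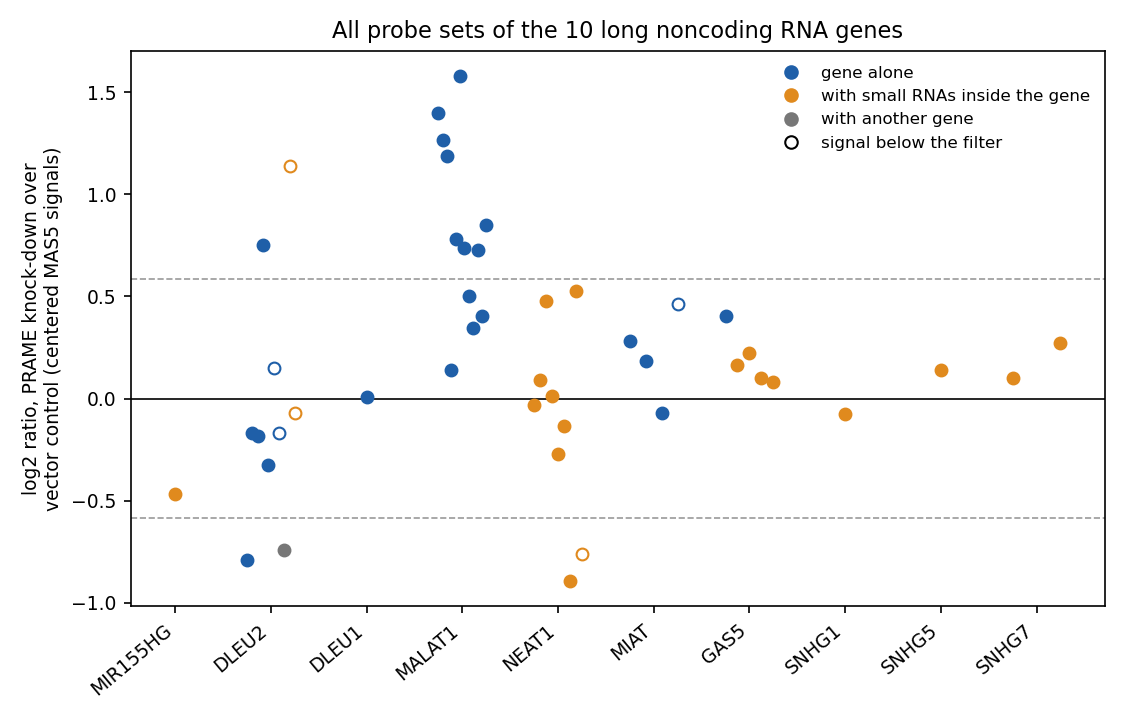
Difference between PRAME knock-down and vector control cells (vertical axis, log2 ratio) for all 46 probe sets of the 10 genes, 1 array per condition, with dashed lines at 1.5-fold. Blue points are probe sets of the gene alone, orange points are shared with small RNAs inside the gene, the grey point is shared with another gene, and open points had signals below the filter. The 12 MALAT1 points all lie above 0, between 0.14 and 1.58, whereas those of NEAT1 and DLEU2 lie on both sides.

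Long noncoding RNAs as a class also had more higher than lower values. Of 721 long noncoding RNA genes above the filter, 138 were at least 1.5-fold higher (19.1%) and 19 lower (2.64%), with a median log2 ratio of 0.22. Of 10834 protein-coding genes, 719 were higher (6.64%) and 607 lower (5.60%), with a median of -0.020. The long noncoding RNA genes were dimmer, with a median signal of 199, beside 884 for the protein-coding genes, and the log2 ratios of dim probe sets were higher on these arrays. The median of the dimmest eighth of the probe sets above the filter was 0.21. After subtraction of the loess curve against the signal, 14.01% of the long noncoding RNA genes were higher and 3.47% lower, beside 5.89% and 5.21% of the protein-coding genes. With an offset of 64, 9.32% were higher and 1.39% lower, beside 3.76% and 4.15%. The MALAT1 probe sets spread over several bands of signal. In the bands from 1362 to 2799 and from 2800 to 28319, which hold the 6 brightest, 2.20% and 1.14% of all probe sets were at least 1.5-fold higher. In the bands from 306 to 484, from 484 to 787 and from 787 to 1361, which hold the 6 dimmest, it was 7.21%, 4.81% and 2.99%.

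**Figure D3:**
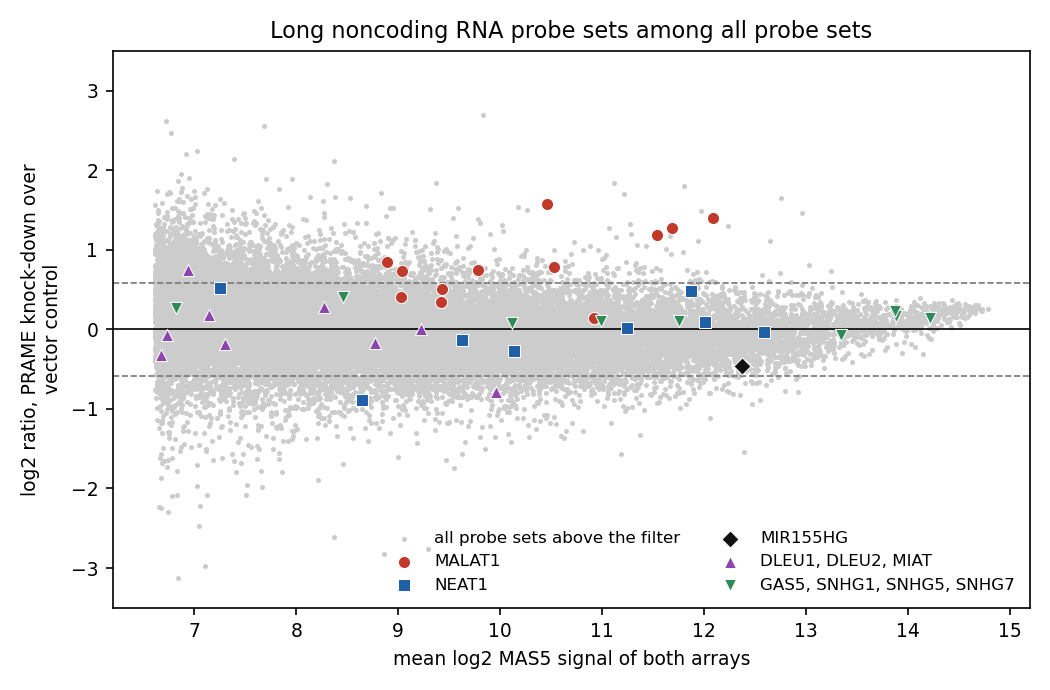
Difference between PRAME knock-down and vector control cells (vertical axis, log2 ratio) by brightness (horizontal axis, mean log2 MAS5 signal) for all 27307 probe sets above the filter (grey) and for the 39 among them that belong to the 10 genes, alone or shared with small RNAs inside the gene (colored symbols), with dashed lines at 1.5-fold. The brightest MALAT1 probe sets (red circles) lie at the upper edge of the grey points, with log2 ratios of 1.19 to 1.40, and MIR155HG (black diamond) lies at -0.46.

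NEAT1, which lies next to MALAT1 on chromosome 11, did not show this pattern. All 9 NEAT1 probe sets are shared with MIR612, a microRNA within the gene, and 8 of them were above the filter. Their log2 ratios were above 0 in 4 and below 0 in 4, with a median of -0.010. The brightest, 234989_at, had nearly equal signals of 6200.4 in the knock-down cells and 6149 in the control cells (log2 ratio -0.033 after centering, 0.012 without).

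The probe sets of NEAT1 differed from each other by a range of 1.42 on the log2 scale. For 214657_s_at the signal was 299 in the knock-down cells and 538 in the control cells (log2 ratio -0.89), and this was the only probe set above the filter that was past 1.5-fold. In the other direction, 224565_at had a signal of 4507 in the knock-down cells and 3136 in the control cells (log2 ratio 0.48), and the dim probe set 239269_at had 186 in the knock-down cells and 125 in the control cells (0.52). The 4 remaining probe sets had log2 ratios between -0.27 for 238320_at and 0.091 for 225239_at. NEAT1 has a short and a long isoform, and which of them each probe set sees was not determined here. MALAT1 and NEAT1 have the same 10 nearest measured genes, 5 on each side, and these had log2 ratios between -0.64 (PCNX3) and 0.12 (CDC42EP2), with a median of -0.17. None of them was at least 1.5-fold higher, unlike MALAT1.

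Proteins that work with both nuclear RNAs changed little as groups. Of 27 measured paraspeckle proteins, 3 were at least 1.5-fold lower and 0 higher, beside 5.42% lower and 7.54% higher of all genes. The list had a median log2 ratio of 0.0015. SS18L1, a chromatin-associated protein also found in paraspeckles, had a signal of 534 in the knock-down cells and 970.0 in the control cells (log2 ratio -0.91). SFPQ and RBM14, both needed for paraspeckles to form, had log2 ratios of -0.83 and -0.67 in their brightest probe sets. However, the 5 SFPQ probe sets ranged from -0.83 to 0.32, with a median of 0.16, and the 3 RBM14 probe sets from -0.67 to 0.066. Of 16 measured nuclear speckle splicing factors, none was past 1.5-fold in its brightest probe set, and the median was -0.037. The lowest was the splicing factor U2AF2 (log2 ratio -0.55) and the highest the speckle scaffold protein SRRM2 (0.37), whose 4 probe sets ranged from -0.97 to 0.37.

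MIAT, another nuclear long noncoding RNA, first described in a study of myocardial infarction, was dim on both arrays. Its brightest probe set, 228658_at, gave a signal of 346 in the knock-down cells and 276 in the control cells (log2 ratio 0.28). The probe sets 240607_at and 227168_at had log2 ratios of 0.18 and -0.071, and the fourth, 237322_at, was below the filter with signals of 71.0 in the knock-down cells and 49.9 in the control cells. All 4 were below 1.5-fold. The 10 nearest measured genes on chromosome 22 had a median of 0.12.

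MIR155HG had a high signal on both arrays and was lower in the PRAME knock-down cells, but by less than 1.5-fold. The single probe set, 229437_at, is annotated to MIR155HG and to MIR155 within it. The signal was 4607 in the knock-down cells and 6162 in the control cells, a ratio of 0.72 after centering (log2 ratio -0.46). Of the 1000 probe sets of closest brightness, 6.2% gave lower log2 ratios. The log2 ratio stayed between -0.56 and -0.40 under all processing alternatives. With 1 probe set and 1 array per condition, neither a second measurement nor a spread between cultures is at hand for this value.

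The promoter of MIR155HG is shown because factors that act on it are described next. The line gives 75 bases before and 25 bases from the RefSeq start (chr21:25562070-25562169, plus strand, GRCh38.p14), with an AP-1 motif and a TATA box in capitals.
MIR155HG: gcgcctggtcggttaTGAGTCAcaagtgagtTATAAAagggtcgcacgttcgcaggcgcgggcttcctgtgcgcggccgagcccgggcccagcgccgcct
Promoters of 9 of the 10 genes were found in the table, without NEAT1, and windows of 250 bases before to 50 after the start were searched on both strands. The AP-1 motif TGANTCA was found in MIR155HG only, and in 7.76% of 27305 promoters of the same length. The TATA box letters TATAAA were found before the start of MIR155HG, DLEU2 and SNHG7. In SNHG1 they were found only on the opposite strand, after the start, and 11.95% of all promoters hold them on either strand at any place in the window. A loose NF-kB motif (GGG and CC with any bases in between, of fixed spacing) was found in MIR155HG, DLEU2 and SNHG7, but 58.0% of all promoters hold it. In MIR155HG it overlaps neither of the other motifs. The E-box CACGTG was found in DLEU2 and SNHG7 and in 7.43% of all promoters. The CRE motif TGACGTCA was found in none of the 9 genes and in 1.98% of all promoters. These matches describe letters only.

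The transcription factors known to act on MIR155HG had mostly lower values. Of 15 measured, 11 had a log2 ratio below 0, with a median of -0.20, whereas 51.0% of all genes were below 0. At 1.5-fold, 2 were lower and 0 higher, beside 5.42% and 7.54% of all genes. MYB, a transcription factor of blood progenitor cells, had a signal of 5531 in the knock-down cells and 9187 in the control cells (log2 ratio -0.78). NFKB2, a subunit of the noncanonical NF-kB pathway, had 1777 in the knock-down cells and 2775 in the control cells (log2 ratio -0.69). These are the brightest of 2 probe sets of each gene. The other probe sets were within 1.5-fold, with log2 ratios of -0.29 for MYB and -0.31 for NFKB2. The brightest probe set of the AP-1 factor JUN had a log2 ratio of 0.037, but its 4 probe sets ranged from -0.49 to 0.063 with a median of -0.22. BATF3, with 1 probe set, had a log2 ratio of 0.062. These JUN and BATF3 values and those of single genes named below as further examples were picked after the values were seen.

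Described targets of miR-155 were also mostly lower. Of 26 measured, 21 had a log2 ratio below 0, with a median of -0.27, whereas 51.0% of all genes were below 0. At 1.5-fold 5 were lower and 1 was higher, or 19.2% and 3.85%, beside 5.42% lower and 7.54% higher of all genes. The transcriptional repressor BACH1 had a signal of 597 in the knock-down cells and 1046 in the control cells (log2 ratio -0.85). It was followed by MYB, by the ubiquitin ligase PELI1 (-0.67) and by JARID2, a subunit of the polycomb complex PRC2 (-0.65). The death receptor adaptor FADD (-0.62) was the fifth lower gene, and the p53 target TP53INP1 (0.62) the higher one. MYB, PELI1 and JARID2 each also had a probe set within 1.5-fold, with log2 ratios of -0.29, -0.25 and -0.42. After quantile normalization and after loess subtraction 3 were lower and 1 higher, with medians of -0.30 in both settings. MYB is on this list and on that of the factors acting on MIR155HG.

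The 10 nearest measured genes of MIR155HG on chromosome 21 had log2 ratios between -0.92 (JAM2) and 0.24, with a median of -0.23, and the 125 genes measured on this chromosome had a median of -0.17. The medians of the neighboring genes and of the whole chromosome thus lay below 0, as MIR155HG did. Not every neighbor did, with D21S2088E at 0.24 and GABPA at 0.23. The part of the region in the value of MIR155HG was not tested.

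DLEU2 differed between its probe sets. The brightest of the 5 above the filter, 216870_x_at, had a signal of 768 in the knock-down cells and 1288 in the control cells (log2 ratio -0.79), and 2.2% of the 1000 probe sets of closest brightness gave lower log2 ratios. The dim probe set 1564443_at, with signals of 162 in the knock-down cells and 93.3 in the control cells (log2 ratio 0.75), differed in the opposite direction. Its control signal was below the filter of 97.7. The 3 others were lower by less than 1.5-fold, with log2 ratios of -0.17 for 1556821_x_at, -0.19 for 1556820_a_at and -0.33 for 216856_s_at. The median of all 5 was -0.19. Below the filter, 242854_x_at and 1569600_at had log2 ratios of 0.15 and -0.17.

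The probe set 215629_s_at, shared by DLEU2, MIR15A and the pseudogene DLEU2L, was lower with a signal of 996 in the knock-down cells and 1614 in the control cells (log2 ratio -0.74). The 2 probe sets shared by DLEU2 and MIR15A alone were below the filter on average, with signals of 59.1 and 35.6 in the knock-down cells and 26.0 and 36.2 in the control cells. The sign of DLEU2 depended on the choice of probe sets. When the endings _s_at, _x_at and _a_at were left out, only 1564443_at remained above the filter. Its log2 ratio was 0.48 with an offset of 64, 0.57 after loess subtraction and 0.58 after quantile normalization, below 1.5-fold in all 3.

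DLEU1, which starts within DLEU2 and is read in the opposite direction, had nearly equal signals. The signal of 205677_s_at was 608 in the knock-down cells and 586 in the control cells (log2 ratio 0.0082), and the log2 ratio lay between -0.087 and 0.067 under the alternatives, so its sign was not stable. Protein-coding genes of 13q14 around both were mostly below 0. Of 21 measured, 17 had a log2 ratio below 0, with a median of -0.21, whereas 51.0% of all genes were below 0. In their brightest probe sets 0 were at least 1.5-fold lower and 1 was higher, beside 5.42% and 7.54% of all genes. The higher gene was RCBTB2, with a signal of 300 in the knock-down cells and 186 in the control cells (log2 ratio 0.65, or 0.50 with an offset of 64). TRIM13, which starts within DLEU2, had a log2 ratio of -0.40, with 4 probe sets between -0.40 and 0.36. The 213 genes of chromosome 13 had a median of -0.084.

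The snoRNA host genes gave some of the highest signals of the arrays and differed little between the conditions. The only probe set of GAS5 alone, 1560402_at, was also the dimmest of this gene, with a signal of 413 in the knock-down cells and 302 in the control cells (log2 ratio 0.41). The 4 probe sets shared by GAS5 and the snoRNAs in its introns were brighter. Of these, 224741_x_at had a signal of 16319 in the knock-down cells and 14096 in the control cells (log2 ratio 0.17), and 224841_x_at had 16559 in the knock-down cells and 13731 in the control cells (0.23). The log2 ratios of 227517_s_at and 228238_at were 0.099 and 0.080. All 5 GAS5 probe sets were thus higher, and all by less than 1.5-fold.

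SNHG5 had a signal of 20362 in the knock-down cells and 17909 in the control cells for 225155_at (log2 ratio 0.14), and the sign changed after quantile normalization (-0.0094). SNHG1 had a signal of 10272 in the knock-down cells and 10506 in the control cells for 224610_at (log2 ratio -0.078), and was below 0 in every setting. SNHG7 had a signal of 3632 in the knock-down cells and 3283 in the control cells for 229050_s_at (log2 ratio 0.10), and the dim probe set 1552729_at had 126 in the knock-down cells and 101 in the control cells (0.27). No snoRNA host gene was past 1.5-fold in any probe set. SNHG7 lies on chromosome 9, where the 10 nearest measured genes ranged from -0.39 for NOTCH1 to 0.95 for C9orf163, with a median of 0.067.

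Many snoRNA host genes and all ribosomal protein genes begin their transcripts with a run of pyrimidines that couples their translation to growth signals, and the starts of the 3 SNHG genes are therefore shown. GAS5, the remaining host, has no pyrimidine at the RefSeq start used here (a run of 0 bases) and is not shown. Other starts of GAS5 were not examined, so whether it has such a run was not determined. Each line gives 15 bases before and 30 bases from the RefSeq start on the strand of the gene, on GRCh38.p14, with the run of C and T from the start in capitals. The stretches are chr11:62855856-62855900 for SNHG1, chr6:85678704-85678748 for SNHG5 and chr9:136728155-136728199 for SNHG7, all on the minus strand.
SNHG1: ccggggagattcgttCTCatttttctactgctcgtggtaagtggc
SNHG5: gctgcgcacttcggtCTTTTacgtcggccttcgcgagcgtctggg
SNHG7: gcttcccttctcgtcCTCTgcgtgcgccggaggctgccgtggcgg
The runs hold 3, 5 and 4 bases. A run of at least 5 bases that begins with C was found in SNHG5 alone among 9 genes and in 4.04% of all promoters.

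Cytosolic ribosomal protein genes were slightly higher. Of 54 measured, 52 had a log2 ratio above 0 and 2 below, with a median of 0.20, whereas 51.0% of all genes were below 0. In their brightest probe sets 1 was at least 1.5-fold higher (1.85%) and 0 lower, beside 7.54% and 5.42% of all genes. The higher gene was RPL14, with a signal of 11254 in the knock-down cells and 6212 in the control cells (log2 ratio 0.81, with its 3 probe sets between -0.71 and 0.81). The median of the list and the number of genes above 0 depended on the scaling. After quantile normalization the median of the list was 0.022, with 33 of 54 genes above 0, and after loess subtraction it was 0.12 with 47 above 0. The same settings brought the GAS5 probe set 224741_x_at to 0.069 and 0.12.

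The proteins that bind snoRNAs and the factors of nonsense-mediated decay, which can remove spliced hosts, had medians near 0. Of 16 measured snoRNA-binding and assembly proteins, 12 had a log2 ratio below 0, with a median of -0.075 and values from -0.45 for NHP2 to 0.29 for RUVBL2. None was past 1.5-fold in its brightest probe set. Of 15 measured decay factors, 2 were at least 1.5-fold lower and 0 higher, beside 5.42% and 7.54% of all genes, with a median of 0.0017. These were NCBP1, a subunit of the nuclear cap-binding complex, with a signal of 637 in the knock-down cells and 1115 in the control cells (log2 ratio -0.85), and the translation release factor ETF1 with 3206 in the knock-down cells and 4946 in the control cells (-0.67). Both probe sets of each gene were lower, with log2 ratios of -0.85 and -0.52 for NCBP1 and of -0.67 in both for ETF1. The other 13, among them UPF1 and the measured SMG genes, were within 1.5-fold in their brightest probe sets. However, the 2 UPF1 probe sets had log2 ratios of -0.87 and 0.017, and the 3 SMG9 probe sets ranged from -0.24 to 0.70 with a median of 0.46.

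**Figure D4:**
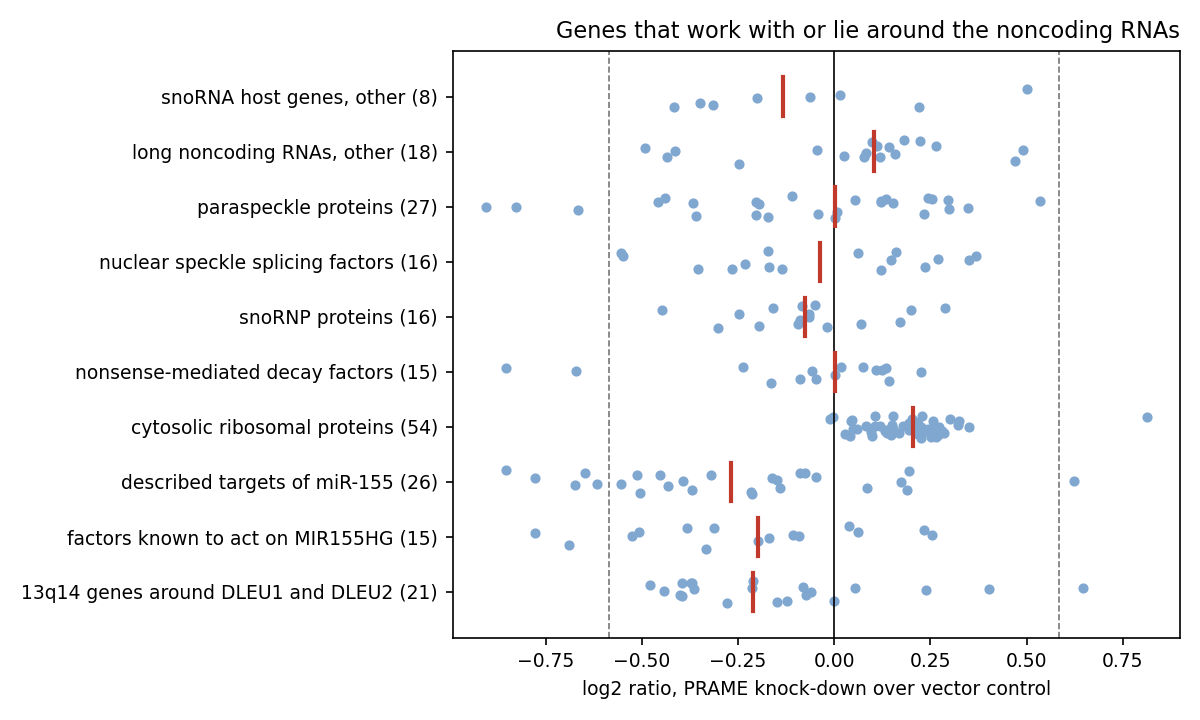
Difference between PRAME knock-down and vector control cells (horizontal axis, log2 ratio) for the genes of 10 lists that work with or lie around the long noncoding RNAs (blue points, 1 per gene at its brightest probe set, number of measured genes in brackets), with the median of each list in red and dashed lines at 1.5-fold. The medians range from -0.27 for described targets of miR-155 to 0.20 for cytosolic ribosomal proteins, and 1 ribosomal protein gene lies past 1.5-fold.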

How the data were processed

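One Affymetrix HG_U133PLUS2.0 array was hybridized by the authors for the PRAME knock-down and one for the vector control. The deposited table holds linear intensity values (MAS5 signals), which the authors computed with Expression Console 1.1. Detection calls were not used here. The 62 control probe sets were left out and signals were log2 transformed with no offset added. The brighter part of the probe sets, from the median of the mean log2 signals upwards, was used, and the log2 ratios were centered (0.045 was subtracted). The annotation gave 1 symbol to 41097 probe sets, several to 1801 and none to 11777. Symbols were updated through gene numbers to RefSeq (41043 matched). Small RNAs were taken as lying inside a host when both were nested in the RefSeq table of GRCh38.p14. The brightest of the probe sets above this filter stood for a gene.

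With 1 array per condition, called means past 1.5-fold or 2-fold, and no test was performed. The members and gene lists were chosen with earlier results of these data known. Every probe set of a member gene alone was named, and of each list up to 4 genes with the largest differences past 1.5-fold, or the lowest and the highest gene. The shared probe sets fall outside this rule and were named after their values were seen. Alternatives were quantile normalization, a loess curve against the signal subtracted (span 0.4), no centering, an offset of 64, a stricter filter (percentile 75) or none, the median of each gene over probe sets, and leaving out the endings _s_at, _x_at and _a_at. The scripts were checked on simulated data. The tools were pandas 2.3.3 and numpy 2.4.6 under Python 3.11.15, with statsmodels 0.14.6 for the loess curve and matplotlib 3.10.9 for plots.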

Additional observations from a re-analysis of the deposited data

How the results depend on the processing

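The counts of probe sets of the genes alone (9 at least 1.5-fold higher, 1 lower, 4 at least 2-fold higher, 0 at least 2-fold lower) stayed within 1.5 times under no centering, quantile normalization, loess subtraction, the offset of 64, no filter and the filter at the 75th percentile. The median log2 ratio over genes (0.28) stayed above 0 but was 0.067 with the filter at the 75th percentile, 0.18 with the median over probe sets and 0.19 without a filter. It was 0.054 with the shared probe sets and 0.14 without MALAT1. When the endings _s_at, _x_at and _a_at were left out, 6 probe sets remained, of which 1 was at least 1.5-fold higher, 0 lower and 0 at least 2-fold higher. In that setting the log2 ratio of DLEU2 reversed to 0.75, since another probe set, with a control signal below the filter, represented it. That of MALAT1 was 0.40. Over the probe sets of a gene the medians were 0.76 for MALAT1 and -0.19 for DLEU2. After seeing the data 2 settings were added. Without MALAT1, 1 probe set was at least 1.5-fold higher and 0 were at least 2-fold higher. With the shared probe sets included, 2 were at least 1.5-fold lower. Without a filter the median log2 ratio of all probe sets before centering was 0.14 in place of 0.045, and the values in that setting are relative to it. No paired analysis was possible because there was 1 array per condition and no test.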

Other observations

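Other long noncoding RNA genes that were chosen by name differed by less than 1.5-fold in their brightest probe sets. Of 18 measured, 0 were past 1.5-fold, beside 19.1% higher and 2.64% lower of the 721 long noncoding RNA genes. The highest probe sets of TUG1 (0.61) and GABPB1-AS1 (0.69) were past it. Of the 18, 13 had a log2 ratio above 0, with a median of 0.10. GABPB1-AS1 was the highest, with a signal of 2469 in the PRAME knock-down cells and 1704 in the control cells (log2 ratio 0.49), and its 5 probe sets were all above 0, between 0.018 and 0.69. LINC-PINT was the lowest, with 989 in the knock-down cells and 1347 in the control cells (log2 ratio -0.49, 1 probe set). Of 8 other snoRNA host genes, 5 had a log2 ratio below 0, with a median of -0.13, from SNHG4 (-0.42, with signals of 105 in the knock-down cells and 136 in the control cells) to SNHG19 (0.50, with 1464 in the knock-down cells and 1002 in the control cells). The very bright host gene ZFAS1 had a signal of 27685 in the knock-down cells and 23018 in the control cells (log2 ratio 0.22), and was picked after its value was seen.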
